A study of Mus musculus with 18 samples.

Results

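The data describe 7 classical target genes of the transcription factor Nrf2 in the brains of mice that the series title describes as unstressed, with and without a working gene for Nrf2. The members, chosen by name, were Nqo1, Hmox1, Slc7a11, Gclc, Gclm, Srxn1 and Txnrd1, and every probe that a RefSeq table pairs with 1 of them through its sequence accession was used. All 7 genes were on the array, out of 18213 genes with a symbol there, and they were represented by 11 probes. Srxn1 and Slc7a11 had 3 probes each and the other 5 genes had 1. Each of the 11 probes passed the filter on dim probes, as did probes of 14822 genes in all. For a gene with several probes, the leading probe is the one with the highest mean over the arrays.

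The arrays formed 6 groups of 3, namely Nrf2 knockout (KO) brainstem, hippocampus and cortex, and wild-type (WT) brainstem, hippocampus and cortex. Animals of both genotypes were males labelled as strain 129SV, and neither age nor any treatment is given in the labels. Each region of each genotype was measured in 3 RNAs that the series calls independent, on 1-colour Agilent arrays labelled with Cy3. The labels give neither the part of the Nrf2 gene (Nfe2l2) that was removed nor whether samples of the 3 regions with the same number came from 1 animal.

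Nrf2 is held in the cytoplasm and marked for degradation by Keap1 in unstressed cells. When oxidants or electrophiles modify Keap1, Nrf2 enters the nucleus, pairs with a small Maf protein and binds antioxidant response elements, where it competes with the repressor Bach1. Its classical targets supply and recycle glutathione, repair oxidised thiols and detoxify quinones and haem, and in brain they are known mainly as an astrocyte defence that is switched on by stress.

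The core of the antioxidant response element was looked for in the RefSeq promoters (GRCm38.p6, 250 bases before to 50 bases after a gene's start) to show where a possible site stands relative to the genes measured. The table held promoters of 5 of the 7 genes, 7 promoters in all, 3 of them of Txnrd1. On either strand, TGACNNNGC was present in promoters of 3 genes (Gclm, Srxn1 and Txnrd1), beside 13.99% of all 27025 genes and 12.39% of all 32851 promoters. The looser TGANNNNGC was present in promoters of 4 genes (with Slc7a11 added), beside 45.05% of all genes and 41.34% of all promoters. The Nqo1 promoter held neither run of letters in this window. These are matches of letters only. The lines that follow show 1 match for each of 4 promoters, in capitals, with 15 bases on each side, read 5′ to 3′ on the strand of the gene.
Gclm, chr3:122245408-122245446, plus strand: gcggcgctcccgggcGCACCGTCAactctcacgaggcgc
Srxn1, chr2:152105464-152105502, plus strand: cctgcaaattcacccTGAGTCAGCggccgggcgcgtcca
Txnrd1, second promoter, chr10:82859099-82859137, plus strand: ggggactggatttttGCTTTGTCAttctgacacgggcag
Slc7a11, chr3:50443635-50443673, minus strand: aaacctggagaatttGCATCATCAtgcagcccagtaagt
The capitals of Gclm and of the second Txnrd1 promoter read TGACNNNGC on the opposite strand. Those of Slc7a11 read TGANNNNGC on the opposite strand, and those of Srxn1 read TGANNNNGC on the gene's strand and overlap the AP-1 motif TGACTCA, which 5.2% of all promoters hold. The TGACNNNGC match of Srxn1 lies downstream of the start of the gene and is not shown, nor is the match to TGANNNNGC in the third Txnrd1 promoter.

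Between 28326 and 32582 of 43379 spots per array were well above background, and 0 were saturated. Of the 11 probes of the 7 genes, 10 were well above background on all 18 arrays and the dimmest Slc7a11 probe on 17. Levels are log2 processed signal relative to the 75th percentile of the array, so 1 unit is a 2-fold difference, and levels of different probes cannot be set against each other. Both probes of Nfe2l2 separated the genotypes, with levels of -8.42 to -3.63 in KO arrays against 0.76 to 1.35 in WT arrays for the brighter one. That probe was well above background on 4 of 9 KO arrays (3 of 3 in hippocampus, 1 of 3 in brainstem and 0 of 3 in cortex) and 9 of 9 WT arrays. Markers of the regions followed the labels. The brainstem list averaged -2.43 in KO and -2.35 in WT brainstem, and no more than -6.18 in the other groups. The hippocampus list averaged 0.02 in KO and 0.22 in WT hippocampus, and no more than -2.53 elsewhere. The cortex list averaged 0.39 in KO and 0.33 in WT cortex, and no more than -0.55 elsewhere.

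Loss of Nrf2 moved none of the 7 genes past the test in any region. Of the 7 genes, 0 were called in KO against WT brainstem, 0 in hippocampus and 0 in cortex, where 0.0299%, 0.02% and 0.0333% of all 30067 probes were called (limma, adjusted p under 0.05 over all probes). For the mean of the 3 regions, which gives the narrowest intervals, 0 of 7 were called beside 0.0466% of all probes, and the smallest adjusted p among the 7 genes was 0.775, for Slc7a11. At an unadjusted p under 0.05, 0 of the 7 leading probes passed in each region and in the mean of the 3 regions, beside 2.88%, 1.28%, 2.01% and 6.43% of all probes in brainstem, hippocampus, cortex and the mean.

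The size of the differences was small and bounded. Over 7 genes and 3 regions, the 21 KO minus WT differences of leading probes ran from -0.36 (Slc7a11 in brainstem) to 0.13 log2 units (Txnrd1 in brainstem). All 21 of the 95% confidence intervals contained 0 and all 21 lay within a 2-fold difference in either direction. In 19 of 21 they lay within 1.5-fold, and the exceptions were Slc7a11 in brainstem and in hippocampus. Most probes had such intervals. Of all probes, 88.4% in brainstem, 89.9% in hippocampus and 88.9% in cortex had intervals within 2-fold, and 62.6%, 65.5% and 62.9% within 1.5-fold. Among leading probes, the lowest bound, 1.77-fold lower in KO, belonged to Slc7a11 in brainstem. The highest, 1.36-fold higher in KO, belonged to Txnrd1 in brainstem. Over all 11 probes, 26 of 33 intervals lay within 1.5-fold and all 33 within 2-fold. The 2 of 33 that excluded 0 were those of Srxn1 probes 2 and 3 in brainstem. For the mean of the 3 regions, the intervals of all 7 genes lay within 1.5-fold, as did those of 87.4% of all probes. That mean takes all arrays as independent. The regions may share animals, so its intervals may be too narrow. The intervals of the single regions reached 0.20 to 0.46 log2 units to either side and are not adjusted for the number of probes tested. A difference whose interval excludes 0 can still miss the adjusted test, as Srxn1 probes 2 and 3 did in brainstem (adjusted p = 0.9999). With 3 arrays a group, the absence of a call therefore does not show the absence of a difference of this size.

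**Figure D1:**
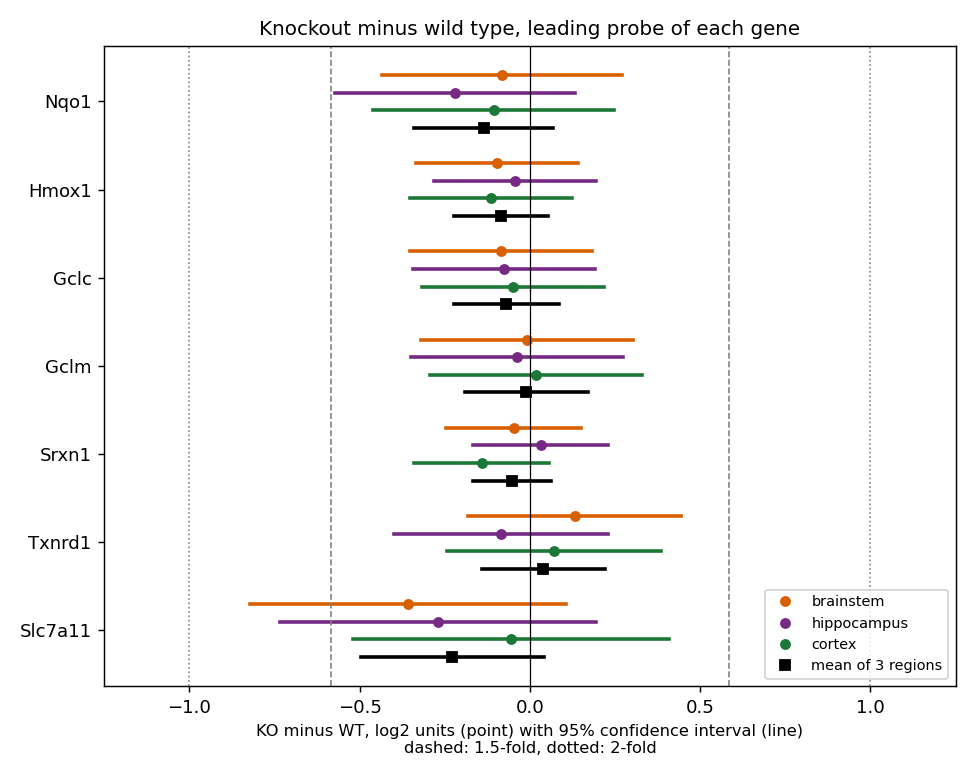
KO minus WT difference of the leading probe of each gene (points, log2 units on the horizontal axis) with its 95% confidence interval (lines), for brainstem, hippocampus, cortex and the mean of the 3 regions. All lines cross 0, and the longest to the left, Slc7a11 in brainstem, reaches -0.82.

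Most of the differences were negative, by little. Of the 21 differences of leading probes, 17 were below 0, and of the 33 differences of all 11 probes, 27 were below 0. Over all probes, 51.3% were below 0 in brainstem, 46.9% in hippocampus and 51.0% in cortex. The median of the 7 genes was -0.08 in brainstem, -0.08 in hippocampus and -0.06 in cortex, and that of all probes was -0.0049, 0.010 and -0.0040. In absolute size, the median difference of the 7 genes was 0.08, 0.08 and 0.07, close to the median of all probes, 0.11, 0.09 and 0.10. The regions may share animals and the 11 probes stand for 7 genes, so these counts are a description.

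**Figure D2:**
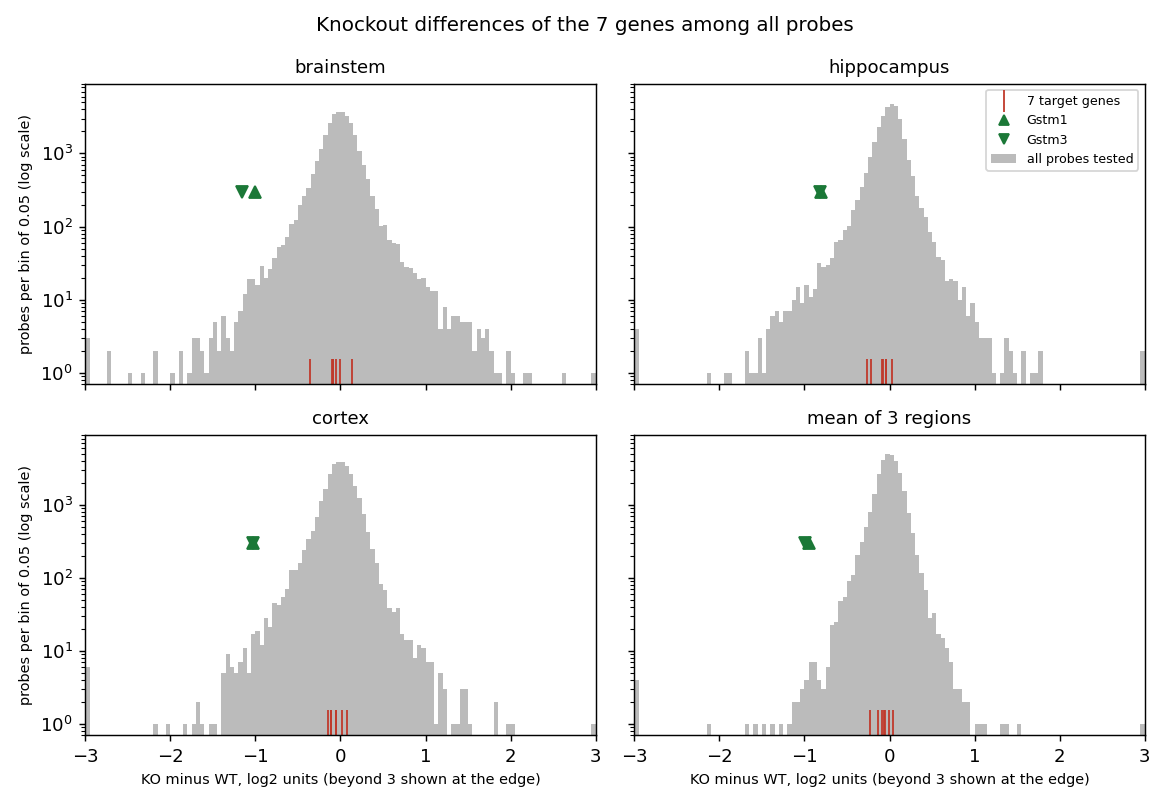
KO minus WT differences of all probes tested (grey bars, log2 units, number of probes on a log axis), with the 7 genes (red ticks) and Gstm1 and Gstm3 (green triangles), in brainstem, hippocampus, cortex and the mean of the 3 regions. The 7 genes lie between -0.36 and 0.13 in every region, while both glutathione transferases lie at -0.81 or lower.

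Nqo1 encodes a quinone reductase that turns quinones into hydroquinones without a radical intermediate. Its brainstem levels were -0.97, -0.90 and -1.03 in KO arrays and -0.79, -0.82 and -1.04 in WT arrays. Hippocampal levels were -1.32, -1.98 and -1.54 in KO and -1.16, -1.43 and -1.60 in WT. Cortical levels were -1.78, -1.39 and -1.75 in KO and -1.66, -1.39 and -1.54 in WT. The genotypes overlapped in each region, and the brainstem arrays were the highest. The KO difference was -0.08 in brainstem, -0.22 in hippocampus and -0.11 in cortex. Over the 3 regions it averaged -0.14 with an interval of -0.34 to 0.07 (adjusted p = 0.793). The lowest hippocampal array, KO replicate 2, was also low in choroid plexus markers. The mean over the 9 choroid plexus genes on the array was 0.14, -3.43 and -2.74 in KO hippocampus and 0.66, 0.20 and -3.47 in WT hippocampus, and 0 of the 9 genes were called between the genotypes. All 9 of the 9 were below 0 in KO minus WT hippocampus (median -1.04) and in KO minus WT cortex (median -0.92), and 1 of the 9 in brainstem (median 0.34). Their part in the Nqo1 levels was not tested.

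Between regions, Nqo1 was 0.67 log2 units higher in brainstem than in cortex in KO mice (interval 0.32 to 1.03, 1.59-fold, adjusted p = 0.00521). In WT mice it was 0.65 higher (standard error 0.17, 1.57-fold, adjusted p = 0.00644). Against hippocampus it was 0.65 higher in KO (adjusted p = 0.00586) and 0.51 higher in WT (adjusted p = 0.0222). Hippocampus and cortex differed by 0.02 in KO and 0.14 in WT, neither of which passed the test.

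Hmox1 encodes haem oxygenase 1, the inducible enzyme that opens haem into biliverdin, iron and carbon monoxide. Its brainstem levels were -0.12, -0.11 and -0.14 in KO arrays and -0.04, 0.18 and -0.22 in WT arrays. Hippocampus gave -0.46, -0.77 and -0.45 in KO and -0.38, -0.59 and -0.58 in WT. Cortex gave -0.58, -0.70 and -0.61 in KO and -0.53, -0.52 and -0.50 in WT. Cortex was the only region in which all KO arrays of Hmox1 lay below all WT arrays, by a difference of -0.12 (interval -0.35 to 0.12, adjusted p = 0.9997). Lower KO arrays without overlap were seen for 1 of the 7 leading probes in cortex, beside 2.9% of all probes. The mean difference over the regions was -0.09 (-0.22 to 0.05, adjusted p = 0.801).

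Hmox1 was 0.51 log2 units higher in brainstem than in cortex in KO mice (1.42-fold, adjusted p = 0.00232) and 0.49 higher in WT mice (1.40-fold, adjusted p = 0.00297). It was 0.44 higher in brainstem than in hippocampus in KO (adjusted p = 0.00561) and 0.49 higher in WT (adjusted p = 0.00251). Hippocampus and cortex differed by 0.07 in KO, with an interval of -0.17 to 0.31, and by -0.0017 in WT, with an interval of -0.24 to 0.24.

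Slc7a11 encodes the light chain of the exchanger that imports cystine, from which the cysteine of glutathione is made, in return for glutamate. Its leading probe had brainstem levels of -0.98, -1.15 and -1.45 in KO arrays and -0.89, -0.87 and -0.76 in WT arrays. In hippocampus the levels were -1.19, -0.74 and -1.69 in KO and -1.04, -1.08 and -0.69 in WT. Those in cortex were -1.05, -0.68 and -0.36 in KO and -0.80, -0.56 and -0.57 in WT. In brainstem all KO arrays lay below all WT arrays, in hippocampus and cortex the genotypes overlapped, and KO arrays spread more widely than WT arrays in all 3 regions. The brainstem difference of -0.36 was 1.28-fold lower in KO (interval -0.82 to 0.11, adjusted p = 0.9999). It was the only 1 of 7 leading probes whose KO brainstem arrays lay below the WT arrays without overlap, beside 2.99% of all probes. No leading probe did so in hippocampus (0 of 7), beside 3.48% of all probes.

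The mean Slc7a11 difference over the regions was -0.23 (-0.50 to 0.04), the largest of the 7 genes, and it did not pass the test. The other Slc7a11 probes gave means of -0.16 (-0.38 to 0.06) and -0.03 (-0.32 to 0.26). In cortex 2 of the 3 probes were above 0, at 0.05 (-0.33 to 0.43) for the second and 0.34 (-0.17 to 0.85) for the dimmest, and the leading probe was below 0.

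Slc7a11 was the exception to the regional pattern of the other genes. By its leading probe brainstem minus cortex was -0.50 log2 units in KO (adjusted p = 0.0902) and -0.20 in WT (adjusted p = 0.518), which did not pass the test. Without KO cortex replicate 1 the KO difference was -0.67 and was called (adjusted p = 0.0354). Hippocampus minus cortex in KO was likewise called without KO hippocampus replicate 2 (-0.74, adjusted p = 0.0289). The second probe gave -0.48 in KO (adjusted p = 0.0512) and -0.19 in WT. Only the dimmest probe was called, at -0.84 in KO (interval -1.35 to -0.33, adjusted p = 0.0124), in a comparison in which 15.7% of all probes were called lower. On KO brainstem array 1, at -5.84, that probe was not well above background. In WT that probe differed by -0.39 (adjusted p = 0.224).

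Gclc encodes the catalytic subunit of glutamate-cysteine ligase, the rate-limiting enzyme of glutathione synthesis. Its brainstem levels were 1.43, 1.51 and 1.52 in KO arrays and 1.60, 1.67 and 1.44 in WT arrays. The hippocampus arrays read 1.21, 1.10 and 1.16 in KO and 1.33, 1.24 and 1.12 in WT. The cortex arrays read 1.06, 0.87 and 0.59 in KO and 1.04, 0.96 and 0.67 in WT. The 6 brainstem arrays lay above the 6 hippocampus arrays and these above the 6 cortex arrays, whatever the genotype. The KO difference was -0.08 in brainstem, -0.08 in hippocampus and -0.05 in cortex, with a mean of -0.07 (-0.22 to 0.08, adjusted p = 0.857).

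Gclc was 0.65 log2 units higher in brainstem than in cortex in KO mice (1.57-fold, adjusted p = 9.09e-04) and 0.68 higher in WT mice (1.60-fold, adjusted p = 5.82e-04). Its excess over hippocampus was 0.33 in KO (adjusted p = 0.0467) and 0.34 in WT (adjusted p = 0.0407), just inside the threshold. Hippocampus exceeded cortex by 0.31 in KO (adjusted p = 0.110) and 0.34 in WT (adjusted p = 0.0805), which did not pass. The WT difference passed with the replicate number as a block (adjusted p = 0.0443), with the mouse as a random block (0.0406) and with quantile normalization (0.0408). The KO difference passed without KO cortex replicate 1 (0.43, adjusted p = 0.0384).

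Gclm encodes the modifier subunit, which lowers the ligase's sensitivity to inhibition by glutathione. Its brainstem levels were -2.40, -2.19 and -2.13 in KO arrays and -2.28, -2.33 and -2.08 in WT arrays. In hippocampus they were -2.85, -2.87 and -2.77 in KO and -2.75, -2.92 and -2.70 in WT. The cortex levels were -3.57, -3.01 and -2.96 in KO and -3.24, -3.32 and -3.05 in WT. The genotypes overlapped in every region, and KO cortex replicate 1 was the lowest array of all. Gclm had the smallest mean KO difference of the 7 genes, -0.01 (-0.19 to 0.17, adjusted p = 0.984). Without KO cortex replicate 1 the cortex difference was 0.21 in place of 0.02, again with no call.

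Among the 7 genes, Gclm had the largest difference between brainstem and cortex. It was 0.94 log2 units higher in brainstem than in cortex in KO mice (interval 0.63 to 1.25, 1.92-fold, adjusted p = 1.41e-04). In WT mice the difference was 0.97 (0.66 to 1.28, 1.96-fold, adjusted p = 1.06e-04). Brainstem exceeded hippocampus by 0.59 in KO (adjusted p = 0.00479) and 0.56 in WT (adjusted p = 0.00645). Hippocampus exceeded cortex by 0.35 in KO (adjusted p = 0.125) and 0.41 in WT (adjusted p = 0.0715). With the replicate number as a block, the last 2 passed the test, at an adjusted p of 0.0393 in KO and 0.0207 in WT.

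Srxn1 encodes sulfiredoxin, which restores peroxiredoxins that have been over-oxidised. Its leading probe had brainstem levels of 3.71, 3.78 and 3.84 in KO arrays and 3.86, 3.86 and 3.75 in WT arrays. In hippocampus the levels were 2.91, 2.99 and 3.08 in KO and 2.86, 2.94 and 3.09 in WT. In cortex they were 3.33, 3.50 and 3.21 in KO and 3.50, 3.52 and 3.45 in WT. The genotypes overlapped in each region, and for both genotypes the order was brainstem, cortex, hippocampus without overlap. The KO difference of this probe averaged -0.05 over the regions (-0.17 to 0.06, adjusted p = 0.854).

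The other Srxn1 probes came closest of the 11 probes to a genotype difference. Probe 2 had brainstem levels of -0.83, -0.72 and -0.82 in KO arrays and -0.53, -0.55 and -0.58 in WT arrays. Probe 3 had -1.05, -1.05 and -0.99 in KO and -0.75, -0.86 and -0.73 in WT. For each of them the KO brainstem arrays lay below the WT arrays without overlap. The differences were -0.23 (-0.44 to -0.03) and -0.25 (-0.45 to -0.05), with unadjusted p of 0.0260 and 0.0184 and adjusted p of 0.9999 for both. Over the 3 regions they averaged -0.14 and -0.15, with unadjusted p of 0.0185 and 0.0137 and an adjusted p of 0.768 for both. These were the only 2 of the 33 differences per region with an unadjusted p under 0.05, and the leading probe, at -0.05 in brainstem (-0.25 to 0.15), did not share them. Of the 4 probes that were not leading, 3 had KO brainstem arrays below WT without overlap, beside 2.99% of all probes, and these 3 stand for 2 genes (Srxn1 and Slc7a11). In hippocampus and cortex 0 of the 4 did, beside 3.48% and 2.9% of all probes. KO and WT arrays of 1 region that share a number lay on 1 slide, which gives 9 such pairs. KO was the lower of the pair in 9 of 9 for Srxn1 probe 3, in 8 of 9 for probe 2 and in 6 of 9 for the leading probe. Over all probes, 0.915% were lower in 9 of 9 pairs and 4.1% in 8 of 9. With the pairs as a block, the means over the 3 regions had adjusted p of 0.322 for probe 3 and 0.357 for probe 2, again with no call. The other 8 probes were lower in KO in 4 to 7 of the 9 pairs.

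**Figure D3:**
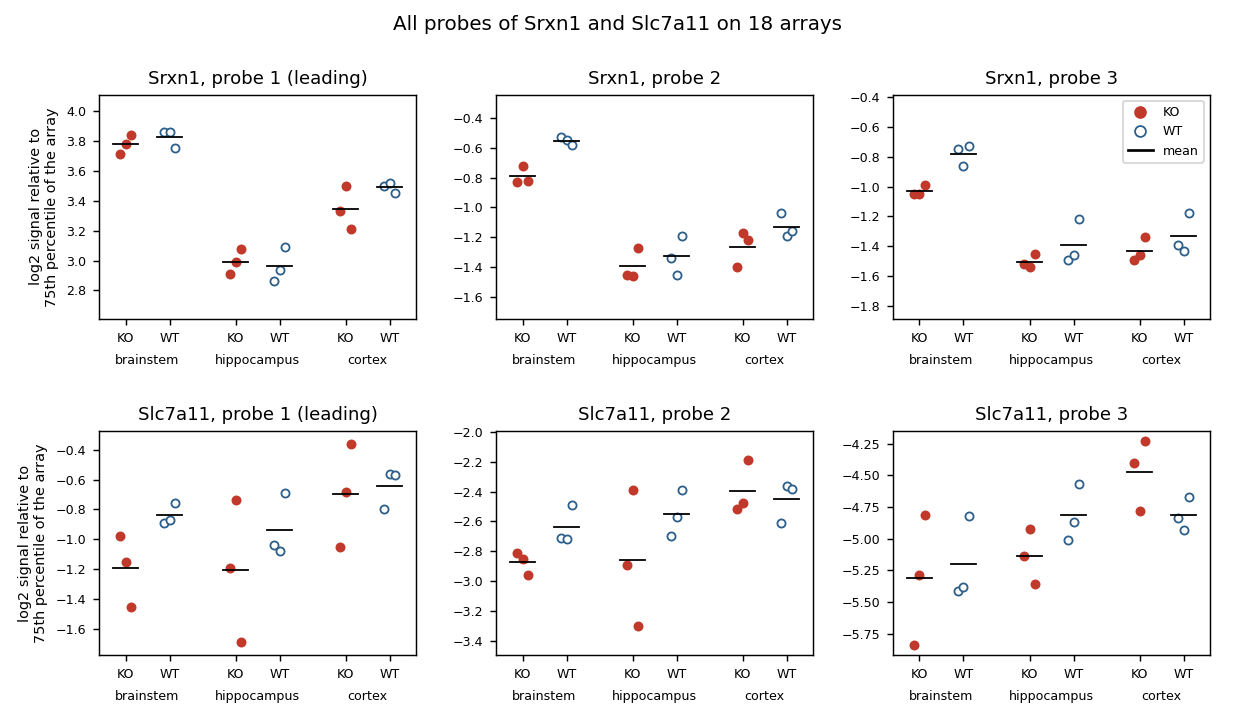
Levels of all 3 probes of Srxn1 (upper row) and of Slc7a11 (lower row), log2 signal relative to the 75th percentile of the array, on 18 arrays (points) with group means (lines), KO left of WT in each region. In brainstem Srxn1 probes 2 and 3 have their KO arrays below their WT arrays, and the leading probe does not.

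All 3 Srxn1 probes were called higher in brainstem than in cortex and in hippocampus in both genotypes. By the leading probe the excess over hippocampus was 0.78 log2 units in KO (1.72-fold, adjusted p = 9.32e-06) and 0.86 in WT (1.82-fold, adjusted p = 3.43e-06). The excess over cortex was 0.43 in KO (adjusted p = 0.00216) and 0.33 in WT (adjusted p = 0.0111). The other probes gave 0.47 and 0.40 over cortex in KO and 0.57 and 0.55 in WT. The leading probe was the only 1 of 7 called lower in hippocampus than in cortex, with differences of -0.35 in KO (adjusted p = 0.0177) and -0.53 in WT (adjusted p = 0.00118), in comparisons in which 7.71% and 8.55% of all probes were called lower. Probes 2 and 3 did not pass there, with -0.13 and -0.07 in KO and -0.20 and -0.06 in WT. The call in KO was lost without KO cortex replicate 2 (-0.28, adjusted p = 0.0855) and without KO hippocampus replicate 1 (-0.31, adjusted p = 0.0838).

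Txnrd1 encodes cytosolic thioredoxin reductase, the selenoenzyme that keeps thioredoxin reduced. Its brainstem levels were 3.06, 3.01 and 3.29 in KO arrays and 3.07, 3.03 and 2.87 in WT arrays. In hippocampus they were 2.64, 2.39 and 2.67 in KO and 2.64, 2.59 and 2.73 in WT. In cortex they were 3.06, 2.57 and 2.35 in KO and 2.55, 2.60 and 2.61 in WT. The KO cortex arrays lay on both sides of the WT ones, with replicate 1 as high as the brainstem arrays. Txnrd1 was the only gene of the 7 with a mean KO difference above 0, at 0.04 (-0.14 to 0.22, adjusted p = 0.943). Even so, KO was the lower in 7 of the 9 pairs that share a slide, as for 9.86% of all probes. In brainstem KO minus WT was -0.01 on slide 1 and 0.41 on slide 2, which held 1 pair. The cortex difference was 0.07 and turned to -0.13 without KO cortex replicate 1.

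Txnrd1 was 0.46 log2 units higher in brainstem than in cortex in KO mice (1.38-fold, adjusted p = 0.0238) and 0.40 higher in WT mice (1.32-fold, adjusted p = 0.0456). Brainstem exceeded hippocampus by 0.55 in KO (adjusted p = 0.00772) and by 0.34 in WT, where the test was not passed (adjusted p = 0.0820) but was with only the groups compared (0.0108) and with normexp background correction (0.0483). The KO call against cortex was lost without KO cortex replicate 2 (0.42, adjusted p = 0.0754) or 3 (0.31, adjusted p = 0.119) and without KO brainstem replicate 3 (0.38, adjusted p = 0.0770). It was also lost with only the groups compared (adjusted p = 0.114). With the deposited table the adjusted p was 0.0519, but its column for KO cortex replicate 3 holds a WT hippocampus array. The WT call was lost with the replicate number as a block (adjusted p = 0.0511), with slide as a random block (0.0822) and with no filter on dim probes (0.0714). Leaving out WT brainstem replicate 1 or 2 (adjusted p = 0.132 and 0.112) or any WT cortex array (0.0868 to 0.109) ended it too.

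**Figure D4:**
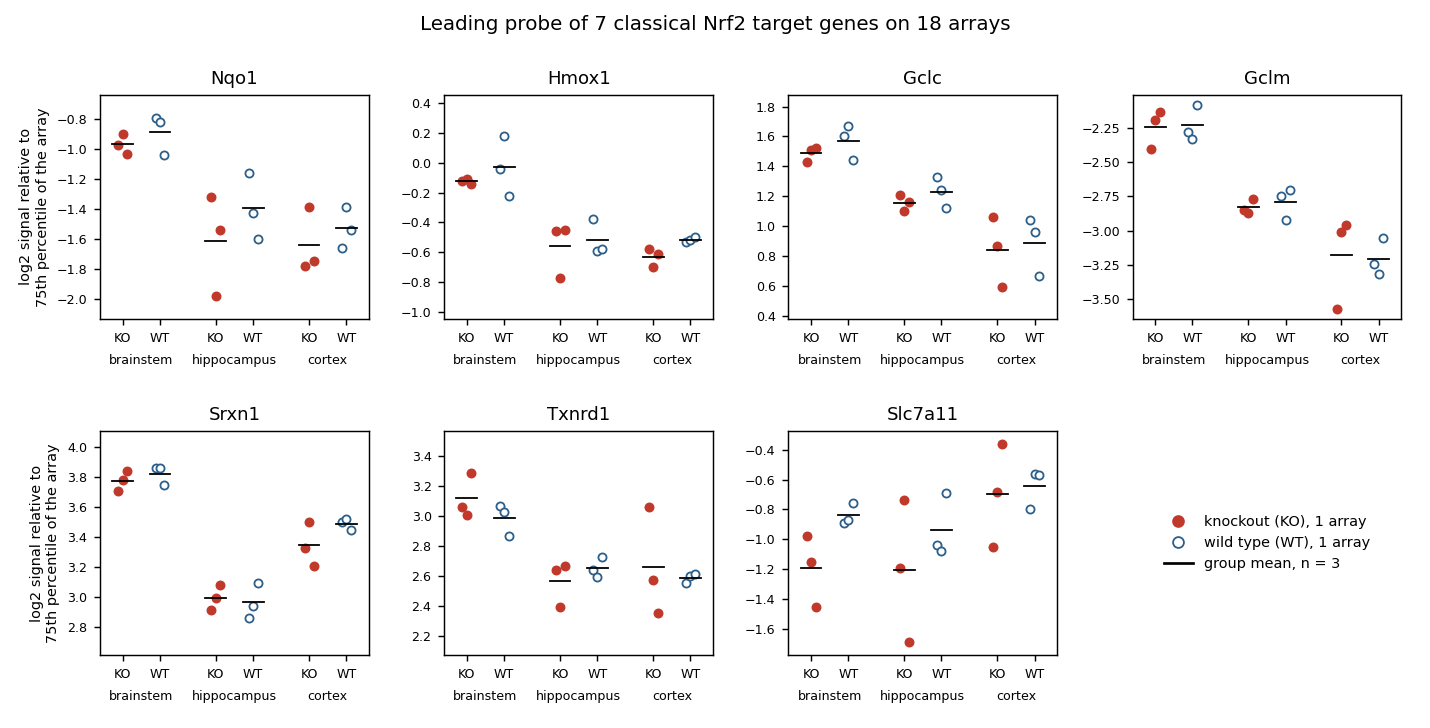
Level of the leading probe of each gene, log2 signal relative to the 75th percentile of the array (vertical axis, its own range in each panel), on the 18 arrays (points) with group means (lines), KO left of WT in each region. Of the 7 genes, 6 have their highest group means in brainstem and Slc7a11 has them in cortex.

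Whether the KO difference itself changed between regions was tested as an interaction. None of the 7 genes (0 of 7) was called for brainstem minus cortex, brainstem minus hippocampus or hippocampus minus cortex, where 0% of all probes were called by limma and 253, 279 and 238 of 30067 probes had an unadjusted p under 0.05. The interaction differences of the 7 genes ran from -0.30 (Slc7a11, brainstem minus cortex) to 0.22 (Txnrd1, brainstem minus hippocampus). Their intervals were wider than those of the single regions. The one for Slc7a11 ran from -0.96 to 0.36.

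In the main fit, which leaves slide out, 6 of the 7 genes were called between brainstem and another region. KO and WT arrays shared the slides, while the regions mostly did not. In KO mice, 6 of 7 were called higher in brainstem than in cortex and 6 of 7 than in hippocampus, beside 19.4% and 20.3% of all probes. In WT mice, 6 of 7 were called higher in brainstem than in cortex and 5 of 7 than in hippocampus, beside 19.8% and 21.6% of all probes. Slc7a11 was called in none of the 4, and Txnrd1 missed the WT comparison with hippocampus. The medians of the 7 genes were 0.51 and 0.55 log2 units in KO and 0.49 and 0.49 in WT, against medians of all probes of 0.04 and -0.01 in KO and 0.05 and -0.00066 in WT.

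**Figure D5:**
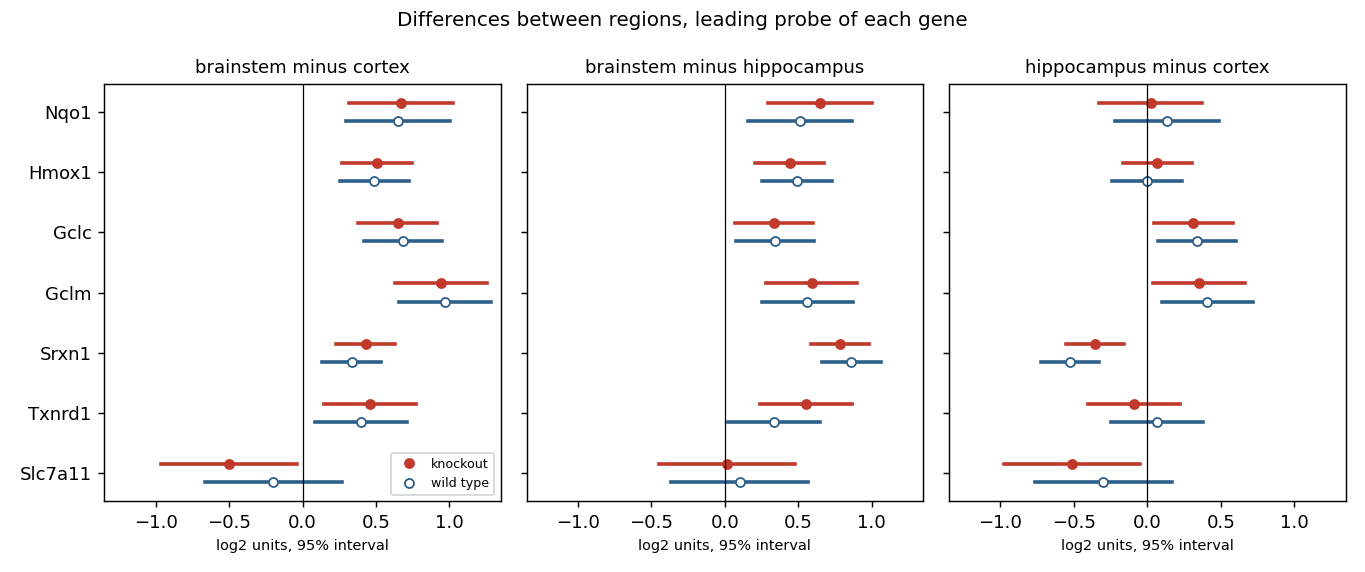
Differences between regions of the leading probe of each gene (points, log2 units) with 95% confidence intervals (lines), KO above WT. In the panels for brainstem, 6 genes lie right of 0 in both genotypes, and Slc7a11 lies at 0.10 or lower.

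The slides limit the regional comparisons. Brainstem and hippocampus arrays shared 1 of the 5 slides, and the cortex arrays lay on slides of their own, so region and slide cannot be told apart for cortex. With slide as a fixed block, the number of genes called higher in brainstem than in hippocampus was 2 of 7 in each genotype. Over all probes, 11809 in KO and 12170 in WT were called in either direction without the block. Under the alternatives that left out no single array, the slide block among them, these counts ran from 9025 to 13785 in KO and 9411 to 14101 in WT. The probes called higher with the block were not counted, so the 2 of 7 have no share of all probes beside them. With the block, Gclm and Srxn1 stayed past the test in both genotypes. On the shared slide, with 1 array a group and no test, brainstem minus hippocampus was 0.72 in KO and 0.67 in WT for Gclm, and 0.92 in KO and 0.89 in WT for Srxn1. For Nqo1 it was 0.29 in KO and 0.12 in WT, for Hmox1 0.33 and 0.16, for Gclc 0.32 and 0.11, and for Txnrd1 0.64 and 0.23. With the block, Nqo1 differed by 0.27 in KO (adjusted p = 0.297) and 0.13 in WT (adjusted p = 0.616), Hmox1 by 0.22 (adjusted p = 0.263) and 0.27 (adjusted p = 0.165), and Gclc by 0.21 (adjusted p = 0.206) and 0.22 (adjusted p = 0.185). In KO mice Txnrd1 stayed at 0.55 with an adjusted p of 0.0656.

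Leaving out single arrays also ended calls against hippocampus. For Gclc in KO, each of the 6 arrays did so (adjusted p 0.0661 to 0.122). For Gclc and Nqo1 in WT, hippocampus replicates 2 and 3 and brainstem replicates 1 and 2 did so, with adjusted p of 0.0815 to 0.136 for Gclc and 0.0608 to 0.0963 for Nqo1.

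Cell-type markers moved between the regions as well. In whole tissue, fewer cells of a type and less RNA per cell cannot be told apart. All 10 of the 10 oligodendrocyte and myelin genes were called higher in brainstem than in cortex in both genotypes. The list averaged 3.76 (3.69 to 3.84) in KO and 3.68 (3.63 to 3.78) in WT brainstem, against 2.45 (2.38 to 2.55) in KO and 2.43 (2.37 to 2.50) in WT cortex. The 10 astrocyte genes averaged 3.04 in KO and 3.06 in WT brainstem against 2.86 in KO and 2.79 in WT cortex, with 4 called higher and 2 lower in KO and 5 higher and 2 lower in WT. Microglia genes ran the other way, with 6 of 10 called lower in KO and 5 of 10 in WT. Endothelial and mural genes called higher were 1 of 10 in KO and 4 of 10 in WT, and those of meninges and fibroblasts 2 and 3. Of the 10 neuron genes, 3 were called higher and 3 lower in each genotype. Over all probes, 19.4% in KO and 19.8% in WT were called higher in brainstem than in cortex, and 15.7% in each were called lower. Against hippocampus, the oligodendrocyte genes called higher in brainstem were 10 in KO and 9 in WT, and the microglia genes called lower were 6 in KO and 6 in WT. Astrocyte genes were called higher in 5 cases and lower in 2 in each genotype. Of the 10 endothelial and mural genes, 4 were higher in KO and 4 in WT. Of the 10 genes of meninges and fibroblasts, 6 were higher and 1 lower in KO (median 0.89), and 6 were higher in WT (median 1.04). Neuron genes were called higher in 4 cases and lower in 3 in KO, and higher in 6 and lower in 3 in WT. Over all probes, 20.3% in KO and 21.6% in WT were called higher in brainstem than in hippocampus, and 19% and 18.9% lower. The part of these lists in the levels of the 7 genes was not tested. Between KO and WT, 0 of the 10 genes of each of these lists were called in any region.

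The absence of calls among the 7 genes was not shared by all Nrf2 targets. Of 40 other Nrf2 target genes, 38 were on the array and 35 were tested. None was called higher in KO. In KO brainstem 3 were called lower (Gstm1, Gstm3 and Osgin1), in hippocampus 2 (Gstm1 and Gstm3), in cortex 3 (Gstm1, Gstm3 and Osgin1) and in the mean of the regions 4, with Aox1 added. Of all probes, 0.0299%, 0.02%, 0.0333% and 0.0466% were called in either direction in the same order. The list was chosen with earlier results of these data known, so its counts are a description and no independent test of Nrf2 targets. The medians of the list were -0.03, -0.03, -0.09 and -0.05, and 21, 22, 21 and 22 of 35 differences were below 0.

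Gstm1, a mu-class glutathione transferase, had levels of 5.20 to 5.41 in KO brainstem against 6.18 to 6.40 in WT brainstem. Its KO difference was -1.01 log2 units in brainstem (-1.19 to -0.82, adjusted p = 6.78e-05), -0.81 in hippocampus and -1.03 in cortex. Gstm3 differed by -1.15, -0.81 and -1.03 in the same order. Both belong to a family of similar genes whose transcripts may bind each other's probes, which was not tested. Osgin1, an oxidative stress-induced growth inhibitor, differed by -1.67, -1.30 and -2.02, but was dim. With normexp background correction it differed by -0.69, -0.49 and -0.73 and was no longer called in brainstem (adjusted p = 0.603) or cortex (adjusted p = 0.309). In the mean of the 3 regions it was still called with that correction (-0.64, adjusted p = 0.00252). Aox1, an aldehyde oxidase, averaged -1.16 over the regions (-1.48 to -0.85, adjusted p = 0.00341).

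Direct partners of the 7 genes did not pass the test either. Of 27 genes for glutathione, thioredoxin and haem metabolism, 0 were called between KO and WT in any region or in the mean, with medians of -0.01 in brainstem, 0.01 in hippocampus and -0.03 in cortex. Slc3a2, the heavy chain that carries Slc7a11 to the membrane, differed by -0.09, 0.02 and -0.07. Gss, glutathione synthetase, differed by -0.11, -0.13 and -0.21, with a mean of -0.15 (unadjusted p = 0.0396, adjusted p = 0.768). Gsr, glutathione reductase, differed by 0.06, -0.03 and -0.03.

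Among 13 regulators and relatives of Nrf2, 12 were tested, and beside Nfe2l2 itself only Nfe2, a related factor, was called lower, in brainstem and in the mean. Its probe was well above background on 0 of 3 KO and 3 of 3 WT brainstem arrays, at least 4.15-fold lower in KO (adjusted p = 0.0227), and on none of the hippocampus arrays (0 of 6). Keap1 differed by -0.02, 0.05 and -0.05 in brainstem, hippocampus and cortex. Bach1 differed by -0.07, -0.15 and 0.05.

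The lists of other targets and of partners were called in both directions between regions. Of the 35 other targets, 12 were called higher and 4 lower in KO brainstem than in KO cortex, and 9 higher and 4 lower in WT. Against hippocampus, 10 were called higher and 3 lower in KO, and 11 higher and 1 lower in WT. In these 4 comparisons 19.4%, 19.8%, 20.3% and 21.6% of all probes were called higher and 15.7%, 15.7%, 19% and 18.9% lower. Of the 27 partners, 7 were called higher and 1 lower in KO brainstem than in KO cortex, and 8 higher and 1 lower in WT. Their median difference was -0.02 in KO, with 14 of 27 below 0, and 0.09 in WT, with 9 of 27 below 0. Gss was among them, 1.15 log2 units higher in KO and 1.05 in WT, as was Blvra, biliverdin reductase A, 0.48 higher in KO and 0.61 in WT. Bach1 was 0.59 higher in KO and 0.71 in WT. Of the 12 regulators and relatives tested, 4 were called higher and 0 lower in brainstem than in cortex in each genotype. Against hippocampus, 5 of them were called higher and 1 lower in KO, and 6 higher and 0 lower in WT. Of the 27 partners, 12 were called higher and 1 lower in KO brainstem than in KO hippocampus (median 0.15). In WT, 12 were called higher and 2 lower (median 0.17).

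Genes whose levels ran most like those of a member's leading probe over the 18 arrays were named by Pearson's r among 13341 genes. They are given as a description, since arrays of 1 region share the tissue. The other probes of Srxn1 and Slc7a11 were not compared. The nearest genes were Ribc1 (r = 0.966), Slc12a2 (0.942) and Car14 (0.942) for Nqo1. For Hmox1 they were Ribc1 (0.956), Slc25a5 (0.954) and H1f0 (0.951). For Slc7a11 they were Nr6a1 (0.853), Myh6 (0.830) and Twnk (0.829), the weakest likeness among the 7 genes. The genes nearest to Gclc were Lsm12 (0.975) and Nfatc3 (0.966), and those nearest to Gclm were Skap2 (0.971), Ranbp6 (0.970) and Pitx3 (0.965). For Srxn1 they were Slc32a1 (0.981), Scx (0.979) and Cartpt (0.979), and for Txnrd1 H3f3b (0.961), St8sia1 (0.960) and Dpy30 (0.944). Ribc1 was the only gene named for more than 1 of the 7.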

How the data were processed

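Scanner outputs of 18 arrays were used. Per the file headers, images were quantified with Feature Extraction 10.7.3.1, and the deposited processed intensity is background-subtracted and detrended within the array, without scaling between arrays. The headers name genome build mm9, and promoter coordinates come from RefSeq on GRCm38.p6. A series-wide table deposited by the authors holds intensity values too. Of its 18 columns, 11 equalled the array named in the title within 0.6% and 7 held another array, so it served only as an alternative.

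Outlier spots by the scanner software's flags, 30 to 140 on an array, were dropped, and log2 of the processed intensity minus the array's 75th percentile (of 653 to 1130 before log2) was averaged over spots of a probe. A probe was tested if some group had it well above background on each of its 3 arrays (30067 of 41174). Of all probes, 26682 matched 1 RefSeq symbol by accession and 14492 matched none. In limma 3.58.1 (R 4.3.3), 1 mean per group was fitted to the 18 arrays (degrees of freedom: 12 residual, 2.47 prior), with two-sided tests, Benjamini-Hochberg adjustment over all probes tested and 13 comparisons. The script was tested on simulated data. The number of arrays limits the precision.

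The members and gene lists were chosen with earlier results of these data known. Genes outside the 7 were named if called between KO and WT, with Slc3a2, Gss, Gsr, Keap1 and Bach1 named whatever their values, and Blvra named after its values were seen. For each member the 3 genes most like it were named, except 1 gene that is not reported here. KO and WT arrays with the same number in a region deviated together (r of 0.24 to 0.63 in 9 of 9 pairs) and lay on the same slide, so the numbers were taken to pair them. The main fit, which gave the intervals and adjusted p unless a block is named, leaves this pairing out. The replicate block uses it as an alternative. Arrays with the same number in different regions did so with r over 0.1 in 14 of 18 pairs, and a shared animal is not established. Alternatives were quantile normalization, normexp (offset 50), flagged spots kept, other filters on dim probes, 1 probe per gene, trend and robust moderation, only the groups compared, blocks by slide, replicate and mouse, the deposited table and leaving out each array. The files gave no mean foreground signal, so normexp was run on the spot and background medians.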

Additional observations from a re-analysis of the deposited data

How the results depend on the processing

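Between KO and WT, 0 of the 7 genes were called under every alternative run. Of 588 recomputed differences, 0 were called, 32 changed sign and 6 moved by more than 1 SD. Of those 6, 4 came with the deposited table and 2 without KO cortex replicate 1. The deposited table is no check in hippocampus or cortex, for genotype or region, since its columns mix the groups there. Of 483 recomputed interactions, 0 were called. The replicate block left the KO count at 0 in each region. Of 756 regional differences, 690 kept their side of the threshold, 47 lost it, 12 gained it, 0 reversed, and 7 that were called under neither setting moved by more than 1 SD.

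Counts of the 7 genes called between regions changed with the setting, and so did calls over all probes in either direction. Leaving out of single arrays aside, hippocampus against cortex had 0 to 6145 in KO and 7 to 6281 in WT. Brainstem against cortex had 7712 to 12161 in KO and 8088 to 12367 in WT. In hippocampus against cortex the count in KO mice was 1, and became 0 with only the groups compared, 2 with the replicate block, 0 with the deposited table, and 0 to 2 when arrays were left out singly. In WT mice it was 1, and became 2 with quantile normalization, 2 with only the groups compared, 3 with the replicate block, 3 with the mouse as a random block and 0 with the deposited table, and stayed at 1 without any single array. In brainstem against hippocampus the slide block left 2 in KO and 2 in WT, and leaving out arrays gave 5 in KO and 3 to 5 in WT. In brainstem against cortex, leaving out arrays gave 5 to 7 in KO and 5 to 6 in WT. With slide as a random block, added after the data were seen, the brainstem counts against cortex were 6 in KO and 5 in WT. The cause of these changes was not tested.

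Over all probes, the KO count in brainstem was 9 and ran from 7 to 16 when arrays were left out. With the deposited table, it was 0 in each region, and the count in hippocampus against cortex was 0 in KO and 7 in WT, where the scanner outputs gave 4553 and 4815. That table's columns for KO cortex replicate 3 and WT hippocampus replicate 3 held Nfe2l2 at 0.92 and -3.63, against their labels.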
